A study of Mus musculus with 18 samples.

Results

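The subject is a set of cytochrome P450 genes of the mouse kidney: *Cyp2j5*, *Cyp2j11*, *Cyp2j13*, *Cyp2e1*, *Cyp2d26*, *Cyp2d9* and *Cyp7b1*. They were chosen by name, with earlier results of these data known, and are 7 of the 78239 genes counted in each library. Kidneys came from 18 wild-type offspring of the outbred CD-1 stock, 1 library per mouse, at 6 wk of age. In the LP groups (males and females) the dam had eaten, through gestation and lactation, a low protein diet (8% protein), and in the NP groups a normal protein diet (18% protein). Each group held 5 mice except NP females, which held 3. All offspring ate the NP diet from weaning, all received cationic ferritin (an iron-bearing tracer that labels glomeruli for MRI), and all were perfused with saline under tribromoethanol anaesthesia. Kidneys were collected 1.5 h after the last ferritin injection in males and 24 h after it in females, so sex and this interval cannot be told apart in any comparison of males with females. Litters are not named in the labels, so mice may share a dam, and p-values measure the spread between these mice.

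Cytochrome P450 enzymes are heme proteins, mostly of the endoplasmic reticulum, that oxidize lipids, steroids and foreign compounds with electrons passed on by P450 oxidoreductase and cytochrome b5. In the kidney they sit mainly in the proximal tubule, the segment that reabsorbs most of the filtrate, and several of them are known in mice for levels that differ between the sexes. The Cyp2j enzymes act on arachidonic acid and related fatty acids, *Cyp2e1* oxidizes ethanol and other small molecules, Cyp2d enzymes act on drugs and steroids, and *Cyp7b1* is an oxysterol hydroxylase of the alternative bile acid pathway. All were measured here as RNA from whole tissue, where fewer cells of a type and less RNA per cell cannot be told apart.

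The depth on genes was 14050486 to 23562411 reads, and 28.64% to 36.09% of the reads counted were not assigned to a single gene. By the summed reads of 4 Y-linked genes, 18 of 18 libraries had the labelled sex. The 13 proximal tubule markers were detected in all groups, at a summed level of 15471 to 20302 CPM (counts scaled to the same library total) in males and 14305 to 21887 CPM in females. LP females 1 and 2 and NP female 3 stood apart, with summed interferon genes at 151 to 226 CPM against 719 to 3421 CPM elsewhere. Their glucocorticoid target genes summed to 361 to 704 CPM, against 1405 to 1885 in other females and 640 to 1031 in males. The proximal tubule marker *Lrp2* was at 1210 to 1696 CPM in them, against 2548 to 3931 CPM in other females. Their 13 proximal tubule markers summed to 14902 to 18083 CPM, against 14305 to 21887 CPM. NP female 3 also had the highest unassigned share, 36.09%. The sex and diet differences and the correlations in females are also given without these 3 libraries.

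On GRCm39 (GENCODE vM39), 3 of the genes lie in the Cyp2j cluster of chromosome 4, all on the minus strand: *Cyp2j13* at chr4:95915771-95965813, *Cyp2j11* at chr4:96182724-96236899 and *Cyp2j5* at chr4:96516753-96552451. *Cyp2d9* (chr15:82317638-82341046, plus strand) and *Cyp2d26* (chr15:82674300-82678509, minus strand) lie in the Cyp2d cluster. *Cyp2e1* is at chr7:140343652-140355167 (plus strand), and *Cyp7b1* at chr3:18117411-18297740 (minus strand). The canonical transcript has 9 exons in each Cyp2 gene of the set and 6 in *Cyp7b1*. An exon of *Cyp7b1* overlaps the antisense gene *Gm55460*, and the libraries did not keep strand. Of the 100-base windows of the canonical transcript, 9.86% were also found in transcripts of other genes for *Cyp2d9*, among them *Cyp2d10* and *Cyp2d12*, against 0% for the 3 Cyp2j genes, 0.374% for *Cyp2d26*, 0.463% for *Cyp7b1* and 1.30% for *Cyp2e1*. Reads from such stretches may be lost or credited to the relative, so *Cyp2d9* is the least certain count of the set.

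The 250 bases before the start of the canonical transcript are shown first for *Cyp2d9* and its neighbour *Cyp2d12*, since these relatives differed between the sexes in opposite directions. The windows matched in 207 of 258 alignment columns (80.2%), the highest identity among 36 pairs of Cyp2d genes, whose median was 51.6%. Sequences are from GRCm39, written 5′ to 3′ on the plus strand, and capitals mark the bases that differ in the alignment: 35 substitutions and 8 bases found in 1 window only on each side.
Cyp2d9, chr15:82336285-82336534: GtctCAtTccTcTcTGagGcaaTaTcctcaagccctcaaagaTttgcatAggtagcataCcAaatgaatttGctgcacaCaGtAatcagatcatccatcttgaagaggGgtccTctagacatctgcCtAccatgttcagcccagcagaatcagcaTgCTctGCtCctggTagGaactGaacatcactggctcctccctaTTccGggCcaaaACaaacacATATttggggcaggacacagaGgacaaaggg
Cyp2d12, chr15:82438996-82439245: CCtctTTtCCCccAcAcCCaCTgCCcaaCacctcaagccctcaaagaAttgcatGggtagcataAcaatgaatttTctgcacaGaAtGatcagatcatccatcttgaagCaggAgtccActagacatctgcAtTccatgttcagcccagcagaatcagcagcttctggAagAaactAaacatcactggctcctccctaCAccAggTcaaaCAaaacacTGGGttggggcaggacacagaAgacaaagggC

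The same window of each gene was searched on both strands for AGAACA (part of the element bound by some steroid hormone receptors), TTCNNNGAA (the STAT element), TATAAA (the TATA box), GTTAAT (part of the HNF1 element) and CAAAGTCCA (an HNF4 element). Of 21757 promoters of protein-coding genes, 14.3% held AGAACA, 7.7% TTCNNNGAA, 11.9% TATAAA, 6.28% GTTAAT and 0.372% CAAAGTCCA. AGAACA was found in *Cyp2j11* and *Cyp2d26*, GTTAAT in *Cyp2d26* and TATAAA in *Cyp2j5*. The GTTAAT and TATAAA matches are on the strand opposite to transcription, so they read ATTAAC and TTTATA in the windows below. *Cyp2j13*, *Cyp2e1*, *Cyp2d9* and *Cyp7b1* held none of the 5 words in this window. The windows of *Cyp2j5* and *Cyp2d26* are shown for their matches, in capitals, beside those of *Cyp2j13* and *Cyp7b1*, the genes with the largest sex differences. All 4 genes are on the minus strand, and the sequences are written in the direction of transcription.
Cyp2j5, chr4:96552452-96552701: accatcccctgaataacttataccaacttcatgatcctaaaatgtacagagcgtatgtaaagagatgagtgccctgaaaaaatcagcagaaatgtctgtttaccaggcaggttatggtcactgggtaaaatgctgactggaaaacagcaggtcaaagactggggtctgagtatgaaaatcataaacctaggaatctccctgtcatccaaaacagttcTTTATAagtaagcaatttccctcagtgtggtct
Cyp2d26, chr15:82678496-82678745: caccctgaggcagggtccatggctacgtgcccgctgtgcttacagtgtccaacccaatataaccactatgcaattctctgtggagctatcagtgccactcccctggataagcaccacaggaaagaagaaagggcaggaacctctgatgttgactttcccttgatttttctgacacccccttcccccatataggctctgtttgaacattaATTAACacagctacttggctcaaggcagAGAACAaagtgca
Cyp2j13, chr4:95965814-95966063: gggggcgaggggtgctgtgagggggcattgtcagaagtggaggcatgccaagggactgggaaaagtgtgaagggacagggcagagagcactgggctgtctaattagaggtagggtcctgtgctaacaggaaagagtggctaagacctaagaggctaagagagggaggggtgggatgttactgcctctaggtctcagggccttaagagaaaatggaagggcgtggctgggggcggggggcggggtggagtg
Cyp7b1, chr3:18297741-18297990: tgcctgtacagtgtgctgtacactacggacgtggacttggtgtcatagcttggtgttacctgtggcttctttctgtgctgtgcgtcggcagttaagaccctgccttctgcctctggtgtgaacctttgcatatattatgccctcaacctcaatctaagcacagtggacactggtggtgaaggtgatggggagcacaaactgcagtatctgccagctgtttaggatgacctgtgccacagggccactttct

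Per unit of transcript length (TPM, the count per exon length scaled to the same total in each library), *Cyp2e1* was the highest of the 7 in males, at 3750 ± 783 TPM (mean ± SD, n = 10), and *Cyp2j5* the highest in females, at 837 ± 167 TPM (n = 8). In males the TPM levels then ran from *Cyp2j5* (1337 ± 147) through *Cyp2j13* (432 ± 64.1), *Cyp2j11* (349 ± 50.5), *Cyp2d9* (143 ± 56.2) and *Cyp7b1* (123 ± 32.7) to *Cyp2d26* (53.4 ± 19.4). Among neighbours in this order, *Cyp2j13* and *Cyp2j11*, *Cyp2d9* and *Cyp7b1*, and *Cyp7b1* and *Cyp2d26* overlapped between mice. In females the TPM levels ran from *Cyp2j5* through *Cyp2d26* (370 ± 122), *Cyp2j11* (314 ± 76.0), *Cyp2e1* (185 ± 97.1), *Cyp2d9* (19.3 ± 11.3) and *Cyp2j13* (2.02 ± 1.78) to *Cyp7b1* (1.36 ± 0.63). Here the first 4 genes overlapped each with the next, as did the last pair. *Cyp2d26* was thus the lowest of the 7 in males and second to *Cyp2j5* in females.

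Males and females were compared with edgeR's quasi-likelihood test, with diet as a covariate, and called genes had a Benjamini-Hochberg adjusted p below 0.05 and differed 1.5-fold or more. Fold changes are log2, males minus females, ± SE. Of the 7 genes, 5 were higher in males (*Cyp2j13*, *Cyp7b1*, *Cyp2e1*, *Cyp2d9* and *Cyp2j5*), 1 was lower (*Cyp2d26*), and *Cyp2j11* was not called. Of all 15678 genes tested, 7.68% were called higher in males and 11.9% lower, and the median log2 fold change was -0.06. Because the members were chosen with earlier results of these data known, their calls are no test against these shares. The same holds for the fits within each diet below. For the 6 called members no male overlapped any female, and the two-sided exact permutation test gave p = 2.29e-05 for each, the smallest that 10 against 8 mice can give. That p follows from the lack of overlap and is not separate evidence. How many of all genes tested also lacked overlap was not counted. Values per mouse are normalized counts (counts divided by DESeq2's size factors), in the order of the replicate numbers.

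**Figure D1:**
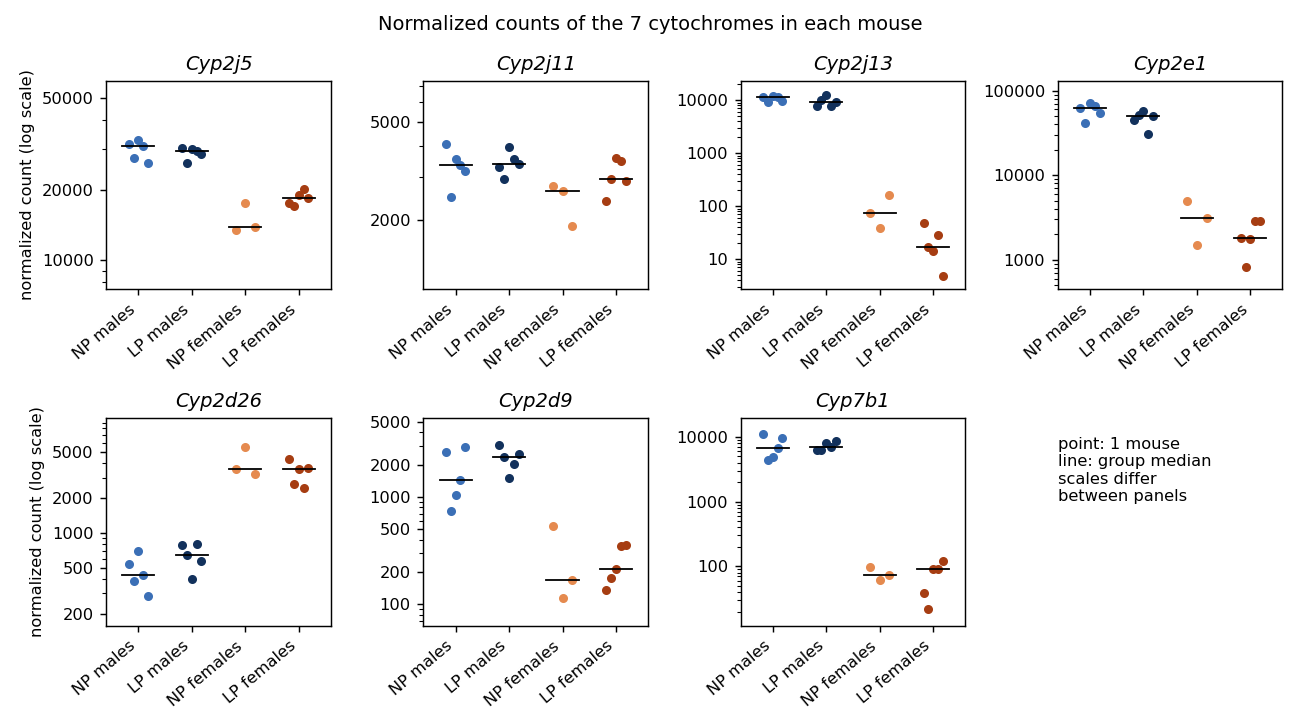
Normalized counts of the 7 cytochromes in each mouse, on a log scale that differs between panels; points are mice and lines are group medians. Males and females do not overlap for any gene but Cyp2j11, and Cyp2d26 is the gene that is higher in females.

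The fatty acid epoxygenase *Cyp2j5* differed least among the called genes. Its normalized count was 30202, 26201, 30150, 29574 and 28465 in LP males and 31597, 27362, 32751, 31036 and 26202 in NP males. It was 17551, 17138, 19126, 20129 and 18434 in LP females and 13484, 17646 and 13837 in NP females. Every male was above every female, by 1.71-fold in the means (log2 fold change 0.81 ± 0.09, edgeR adjusted p = 9.14e-07). Within a group the highest mouse was at most 1.31 times the lowest, the narrowest spread of the 7 genes.

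*Cyp2j11*, a gene of the same cluster, lay between 2488 and 4070 in males (median 3361) and between 1893 and 3562 in females (median 2814). The sexes overlapped, and the difference was under the fold threshold (log2 fold change 0.31 ± 0.11, edgeR adjusted p = 0.0409).

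*Cyp2j13* had the largest difference of the set. Its normalized count was 7650, 9916, 12835, 7761 and 9470 in LP males and 11606, 9322, 12210, 11557 and 9790 in NP males. It was 47.6, 16.8, 14.2, 28.2 and 4.91 in LP females and 75.6, 38.9 and 165 in NP females, from 7 to 136 reads. The lowest male was far above the highest female, and the means differed 209-fold (log2 fold change 7.87 ± 0.45, edgeR adjusted p = 1.93e-10). In NP female 3, which had the highest *Cyp2j13*, the summed Y-linked genes stood at 2.70% of the male mean CPM and *Cyp2j13* at 1.65%. In NP females 1 and 2 the Y-linked genes were at 0.740% and 0.566% and *Cyp2j13* at 0.843% and 0.434%. In LP females the Y-linked genes were at 0 to 0.375% and *Cyp2j13* at 0.0523% to 0.544%. The part of such reads in the female values was not tested.

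The oxysterol hydroxylase *Cyp7b1* was second in the size of its difference. In LP males the normalized count was 6157, 6179, 7981, 6868 and 8761, and in NP males 10953, 4392, 4946, 6715 and 9728. In LP females it was 39.1, 21.8, 90.4, 91.8 and 122, and in NP females 97.0, 61.7 and 74.0. The sexes were separated in every mouse, by 97.3-fold in the means (log2 fold change 6.62 ± 0.32, edgeR adjusted p = 2.63e-11). The 2 lowest females, LP females 1 and 2, are among the 3 libraries that stood apart. *Cyp7b1* in females was at 0.354% to 1.82% of the male mean CPM, and in 7 of 8 females this share was above that of the Y-linked genes, the exception being NP female 3 (1.04% against 2.70%).

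The ethanol-oxidizing *Cyp2e1*, the most abundant of the 7 in males, had normalized counts of 45571, 51305, 58170, 30324 and 50246 in LP males and 63195, 40931, 72213, 65344 and 54709 in NP males. In LP females it was 1814, 812, 1751, 2897 and 2899, and in NP females 5025, 1511 and 3133. Males and females did not overlap, with means 21.5-fold apart (log2 fold change 4.41 ± 0.28, edgeR adjusted p = 7.98e-10). *Cyp2e1* is also a gene of fat cells, and the 9 adipocyte markers differed between libraries, from a summed 6.60 to 216 CPM in males and 7.51 to 488 CPM in females. The male with the most adipocyte signal, LP male 4, had the lowest male *Cyp2e1*, and NP female 1, with the highest female *Cyp2e1*, had adipocyte markers at 16.4 CPM. The females with the most adipocyte signal, LP female 5 (488 CPM) and NP female 3 (397 CPM), had *Cyp2e1* at 2899 and 3133. These were the highest of the LP females and the second highest of all females. LP female 4, with adipocyte markers at 9.13 CPM, was level with LP female 5, at 2897. The part of fat cells in these values was not tested.

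*Cyp2d26* ran the other way. In LP males its normalized count was 793, 645, 399, 796 and 571, and in NP males 537, 382, 703, 437 and 284. In LP females it was 4347, 2640, 3581, 2447 and 3614, and in NP females 3539, 5499 and 3254. Every female was above every male, by 6.52-fold in the means (log2 fold change -2.68 ± 0.20, edgeR adjusted p = 6.22e-09).

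*Cyp2d9*, known as a steroid hydroxylase of male mouse liver, had normalized counts of 3036, 2354, 1508, 2040 and 2522 in LP males and 2640, 743, 1042, 1440 and 2938 in NP males. In LP females it was 136, 176, 213, 352 and 354, and in NP females 533, 114 and 169. The sexes did not overlap, but NP male 2 and NP female 1 lay within 1.5-fold of each other, the closest approach of any called gene but *Cyp2j5*. The means differed 7.92-fold (log2 fold change 3.02 ± 0.34, edgeR adjusted p = 1.74e-06). Of the 8 hepatocyte markers 4 were tested, and none of these was called higher in males. All 8 summed to 29.1 to 48.6 CPM in males and 24.2 to 196 CPM in females. The part of liver cells in the *Cyp2d9* values was not tested. Exons of 2 other annotated genes overlap those of *Cyp2d9* on its own strand.

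The sex difference was also fitted within each diet, in mice that the other fit does not share. In LP mice 5 of the 7 genes were called higher in males, against 6.16% of 15838 genes, and 1 lower, against 5.63%. In NP mice the counts were the same, 5 and 1, against 6.94% and 5.46% of 15497 genes. The called genes were the same 6 in both diets. For *Cyp2j13* the log2 fold change was 8.75 ± 0.49 in LP mice and 6.93 ± 0.47 in NP mice, and for *Cyp7b1* 6.64 ± 0.43 and 6.60 ± 0.44. For *Cyp2e1* it was 4.55 ± 0.35 and 4.24 ± 0.41, for *Cyp2d26* -2.36 ± 0.21 and -3.09 ± 0.29, and for *Cyp2j5* 0.66 ± 0.10 and 1.03 ± 0.15. *Cyp2j11* was called in neither diet (0.18 ± 0.13 and 0.49 ± 0.19).

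*Cyp2d9* was the least certain, at 3.23 ± 0.29 in LP mice and 2.73 ± 0.64 in NP mice (edgeR adjusted p = 2.98e-05 and 0.0213). In NP mice its call was lost without NP female 3 (2.46 ± 0.74, edgeR adjusted p = 0.06) and without NP male 1 (2.53 ± 0.66, edgeR adjusted p = 0.0515), and the log2 fold change was 3.68 ± 0.64 without NP female 1. Without NP female 3, *Cyp2j13* had a log2 fold change of 7.59 ± 0.34 in NP mice. No other member's call in the sex comparisons was lost when a single library was left out.

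Without the 3 females that stood apart (LP females 1 and 2 and NP female 3), the same 6 members were called over both diets. Their log2 fold changes were then 8.41 ± 0.41 for *Cyp2j13*, 6.33 ± 0.28 for *Cyp7b1*, 4.23 ± 0.29 for *Cyp2e1*, 2.73 ± 0.39 for *Cyp2d9*, 0.77 ± 0.10 for *Cyp2j5* and -2.73 ± 0.22 for *Cyp2d26*. The difference of *Cyp2j13* in LP mice alone became 9.35 ± 0.45.

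**Figure D2:**
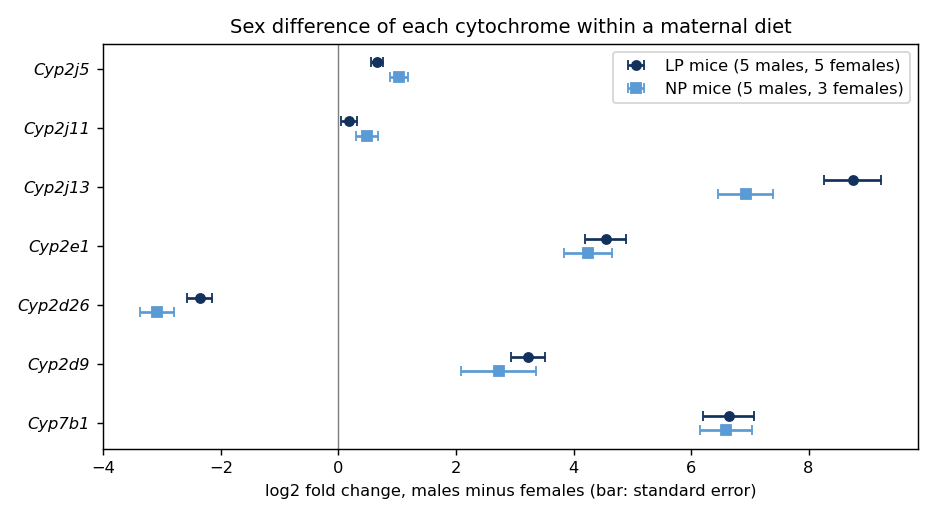
Log2 fold change of males over females for each cytochrome, fitted separately in LP mice (circles) and NP mice (squares), with the standard error as a bar. The order of the genes is the same in both diets, and Cyp2d26 is the gene left of 0, at -2.36 and -3.09.

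Of 5 other Cyp2j genes, 3 had enough reads to test, none was called higher in males and 1 was called lower, *Cyp2j7* (means of 14.6 and 17.5 normalized counts in LP and NP males and 23.7 and 47.4 in LP and NP females, edgeR adjusted p = 0.0127), at a median log2 fold change of -0.37. *Cyp2j6* had a log2 fold change of -0.37 ± 0.10 and *Cyp2j9* of 0.55 ± 0.21, both under the fold threshold. Of 7 other Cyp2d genes, 2 were tested, and both were called lower in males.

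*Cyp2d12*, whose window before the start is shown above beside that of *Cyp2d9*, averaged 19.8 and 8.51 normalized counts in LP and NP males and 442 and 260 in LP and NP females (log2 fold change -4.63 ± 0.41, edgeR adjusted p = 7.99e-08). It is the next gene of the cluster after *Cyp2d9*, on the same strand, and the canonical transcripts matched in 90.5% of alignment columns, yet the 2 genes differed between the sexes in opposite directions in LP mice (3.23 and -4.49) and in NP mice (2.73 and -4.86). *Cyp2d22*, the nearest tested gene on the other side of *Cyp2d9*, was also higher in females (-1.17 ± 0.18, edgeR adjusted p = 4.87e-05), though not called in NP mice alone (-1.06 ± 0.33, edgeR adjusted p = 0.0587).

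**Figure D3:**
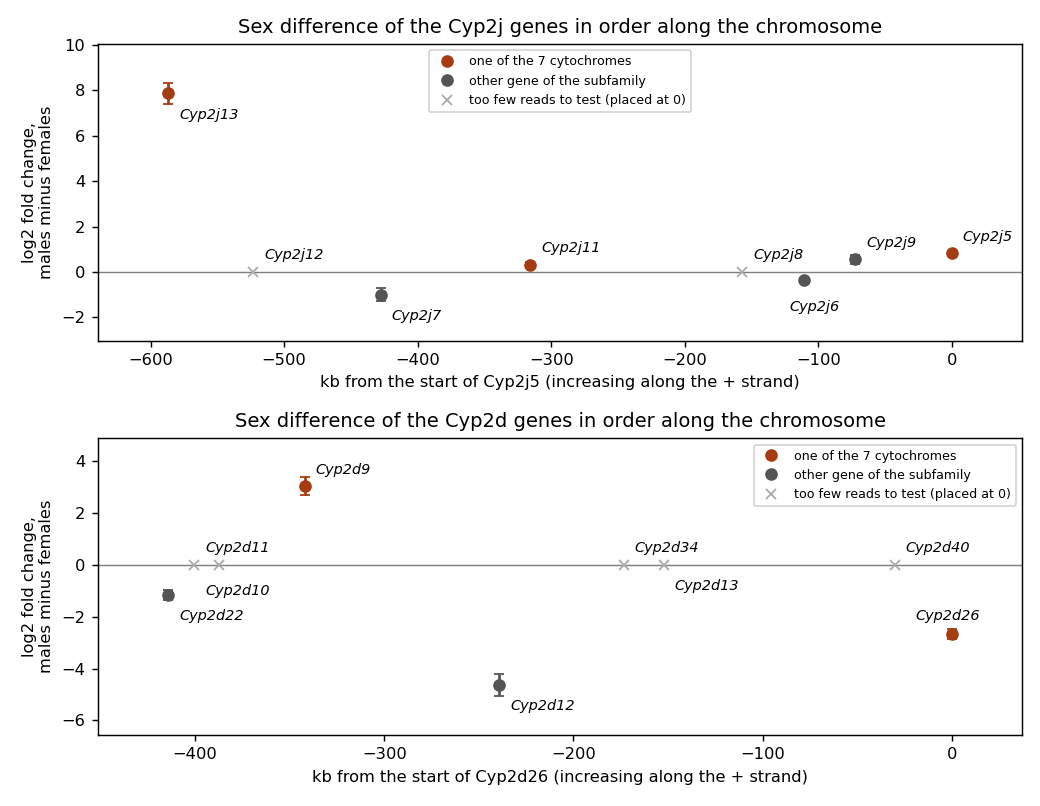
Log2 fold change of males over females (bar: SE) for the genes of the Cyp2j cluster on chromosome 4 and the Cyp2d cluster on chromosome 15, by distance in kb from the start of Cyp2j5 and of Cyp2d26; crosses at 0 are genes with too few reads to test. Cyp2j13 stands at 7.87 with Cyp2j7 below 0 as its nearest tested neighbour, and Cyp2d9 at 3.02 lies between Cyp2d22 and Cyp2d12, both below 0.

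Elsewhere in the Cyp2 family, 7 of 28 further genes were tested, with 2 called higher in males, 3 lower and a median log2 fold change of -0.67. *Cyp2b10* averaged 229 and 125 normalized counts in LP and NP males against 3.19 and 0.997 in females, so it passed the filter on the mean count through the males. *Cyp2a4*, a steroid hydroxylase, had a log2 fold change of 1.18 ± 0.30. The arachidonic acid epoxygenase *Cyp2c23* (-1.97 ± 0.22) and *Cyp2s1* (-0.87 ± 0.10) were lower in males. The edgeR adjusted p of these 4 genes was between 4.76e-07 and 0.0054.

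Genes that work with the members were counted from lists. Of 10 electron transfer and heme genes, all tested, 3 were called higher in males and none lower, with a median log2 fold change of 0.45: cytochrome b5 *Cyb5a* (1.07 ± 0.11), its reductase *Cyb5r3* (0.89 ± 0.06) and the heme-degrading *Hmox1* (1.33 ± 0.38). *Por*, the reductase that serves these cytochromes, was under the fold threshold (0.48 ± 0.13). Of 4 epoxide hydrolases, which take up the products of epoxygenases such as *Cyp2j5*, 3 were tested and *Ephx2*, the soluble enzyme, was the 1 called, higher in males (log2 fold change 1.87 ± 0.10, edgeR adjusted p = 5.81e-11), with a list median of -0.45.

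Of 6 genes listed for ethanol and acetaldehyde, 5 were tested at a median log2 fold change of 0.40. Alcohol dehydrogenases *Adh1* (3.13 ± 0.20) and *Adh5* (0.98 ± 0.13) were called higher in males, and *Aldh1b1*, an aldehyde dehydrogenase of mitochondria, lower (-0.90 ± 0.28). Of 12 oxysterol and bile acid genes, the setting of *Cyp7b1*, 8 were tested, with 2 called higher in males, 3 lower and a median of 0.05. *Amacr*, the racemase that acts on bile acid precursors (2.34 ± 0.12), and the reductase *Akr1d1* (0.67 ± 0.12) were higher, and *Baat*, which joins bile acids to amino acids (-4.13 ± 0.37), and the oxysterol hydroxylase *Cyp39a1* (-0.71 ± 0.11) lower. The edgeR adjusted p of the genes named for these lists ran up to 0.0184.

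Of 27 hormone and nuclear receptor genes, 26 were tested, with 5 called higher in males, 5 lower and a median of 0.16. The prolactin receptor *Prlr* (log2 fold change -5.65 ± 0.44) and the xenobiotic receptor *Nr1i2* (-2.28 ± 0.26) were lower in males, and the estrogen receptor *Esr2* (4.75 ± 0.39) and the bile acid receptor *Nr1h4* (1.10 ± 0.10) higher, at edgeR adjusted p of at most 1.46e-06. *Esr2* averaged 7.76 and 8.01 normalized counts in LP and NP females, so it passed the filter on the mean count through the males.

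Markers of tubule segments moved with sex too. Of 13 proximal tubule markers 1 was called higher in males and 3 lower (median -0.03), and of 5 early proximal tubule markers none was called (median -0.30). Of 5 markers of the late, straight part 3 were called higher and 1 lower (median 1.73). They summed to 3189 to 4608 CPM in males and 629 to 1527 CPM in females. *Atp11a*, with the highest counts of the 5, averaged 44800 and 44698 normalized counts in LP and NP males and 8611 and 9495 in LP and NP females. *Slc7a12* went the other way, at 6.54 and 4.73 against 3821 and 2704, and passed the filter on the mean count through the females. *Slc5a10* was at 3778 and 3797 against 4260 and 4385, so the sum does not stand for every late marker. Of 12 markers of other nephron segments 8 were called lower in males (median -0.76). Of the adipocyte markers 8 were tested and 1, Fabp4, was called lower in males, and of the hepatocyte markers 4 were tested and 1, Alb, was called lower. Of 3 blood, 3 leukocyte and 1 adrenal cortex markers tested none was called. Blood markers summed to 10.1 to 75.2 CPM in males and 19.1 to 174 CPM in females, leukocyte markers to 8.59 to 29.9 CPM over all libraries, and adrenal cortex markers to at most 4.50 CPM, with *Cyp11b1* and *Cyp11b2* at 0 in every library. Glucocorticoid target genes were called lower in males for 4 of 8, and interferon genes for 0 of 10. The part of these lists in the sex differences was not tested.

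Within a sex, the members did not vary as a block. Across the 10 males, Pearson's r of log2(CPM + 1) between pairs of members ran from -0.48 (*Cyp2j13* and *Cyp2d9*) to 0.79 (*Cyp2j13* and *Cyp2e1*), and across the 8 females from -0.82 (*Cyp2j5* and *Cyp2j13*) to 0.77 (*Cyp2e1* and *Cyp7b1*). *Cyp2d9* and *Cyp7b1* had an r of 0.73 in males and 0.61 in females, and *Cyp2j5* and *Cyp2j11* of 0.61 and 0.72. Without the 3 females that stood apart, r over the 5 others was -0.75 for *Cyp2j5* and *Cyp2j13*, 0.63 for *Cyp2e1* and *Cyp7b1*, 0.79 for *Cyp2d9* and *Cyp7b1* and 0.40 for *Cyp2j5* and *Cyp2j11*, and the range over all pairs was -0.81 to 0.95. These are descriptions over few mice, and both genes of a pair are read from the same libraries. In females *Cyp2j13* had only 7 to 136 reads and *Cyp7b1* 26 to 174.

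The genes most like each member were ranked over 10569 genes by the smaller of r in males and r in females. *Cyp2j13* was most like *Slco1a1*, an organic anion transporter (0.91), and *Cyp4a12a*, a fatty acid hydroxylase (0.85), which were also far higher in males (log2 fold change 7.94 ± 0.42 and 7.91 ± 0.54). In females *Cyp2j13* had only 7 to 136 reads, the most in NP female 3, which also had the most Y-linked reads. The part of such reads in r was not tested. *Cyp7b1* was most like the transporter *Slc6a13* (0.88), with a sex difference of -0.14 ± 0.18, and *Serpinf2* (0.86), with 2.64 ± 0.31. *Cyp2e1* was most like *Ttc39c* (0.79) and *Nudt19* (0.76), both higher in males (1.84 ± 0.13 and 2.20 ± 0.26). For *Cyp2d26* *Ogn* is given (0.74), and the genes were for *Cyp2d9* *Copz2* (0.83) and *Sphk2* (0.81), for *Cyp2j5* *Ptcd3* (0.89) and *Mfsd9* (0.88), and for *Cyp2j11* *Acad12* (0.92) and *Rabl3* (0.89). Without the 3 females that stood apart, r with the member over the 5 other females was lower for *Acad12* (0.64), *Rabl3* (0.51), *Slc6a13* (0.56) and *Serpinf2* (0.37), and at least 0.74 for the other genes named here. These genes were picked for a high r among 10569 over few mice, so the r values are descriptions and not tests. Among the genes named, those alike within a sex did not all differ between the sexes as the member did.

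Among the study's questions, beside the duration of nephrogenesis in pups, was whether a maternal low protein diet changed gene expression in the adult kidney. It compared the diets within each sex. In males, 0 of the 7 members were called between LP and NP with edgeR, against 5 of 13181 genes (0.0379%), and 506 genes had an unadjusted p under 0.05, none of them a member. The log2 fold changes, LP minus NP, were -0.03 ± 0.09 for *Cyp2j5*, 0.05 ± 0.12 for *Cyp2j11*, -0.18 ± 0.14 for *Cyp2j13*, -0.32 ± 0.18 for *Cyp2e1*, 0.47 ± 0.24 for *Cyp2d26*, 0.39 ± 0.34 for *Cyp2d9* and -0.02 ± 0.23 for *Cyp7b1*. Within 2 SE, the estimates of *Cyp2e1*, *Cyp2d26* and *Cyp2d9* leave room for a difference of over 1.5-fold in males, and those of the other members do not. The diet groups overlapped for each gene, and single-gene exact permutation p-values were between 0.135 and 0.865, where 5 against 5 mice can give 0.00794 at the least. NP males were the more varied for *Cyp7b1* and *Cyp2d9*, with a highest value 2.49 and 3.95 times the lowest, against 1.42 and 2.01 times in LP males.

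In females, 6 of the 7 members passed the filter of 10 reads in every library compared, and *Cyp2j13* did not. None of the 6 was called with edgeR, and 0 of all 13510 genes tested were (0%). Of those genes 564 had an unadjusted p under 0.05, and 9 were called with DESeq2, where no member was. The log2 fold changes were 0.30 ± 0.16 for *Cyp2j5*, 0.33 ± 0.19 for *Cyp2j11*, -0.66 ± 0.44 for *Cyp2e1*, -0.30 ± 0.25 for *Cyp2d26*, -0.14 ± 0.51 for *Cyp2d9* and -0.08 ± 0.50 for *Cyp7b1*. The edgeR adjusted p was between 0.886 and 0.981. Without the 3 females that stood apart, the estimates were 0.30 ± 0.18 for *Cyp2j5*, 0.29 ± 0.16 for *Cyp2j11*, -0.39 ± 0.47 for *Cyp2e1*, -0.49 ± 0.25 for *Cyp2d26*, -0.09 ± 0.57 for *Cyp2d9* and 0.35 ± 0.31 for *Cyp7b1*, and none was called. Within 2 SE, each of the 6 estimates leaves room for a difference of over 1.5-fold, and that of *Cyp2e1* is itself of that size.

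*Cyp2j13* in females was compared under a filter on the mean count instead. Its values in LP females, 4.91 to 47.6, overlapped with those in NP females, 38.9 to 165, and it was not called (log2 fold change -2.02 ± 0.66, unadjusted p = 0.0131 and adjusted p = 0.897 with edgeR; exact permutation p = 0.0536). Its interaction of diet and sex under that filter was -1.83 ± 0.58 (unadjusted p = 0.00533 and adjusted p = 0.991 with edgeR). In fits added after the data were seen, the diet difference was -1.35 ± 0.70 without NP female 3, which had the highest value, and -1.89 ± 0.68 without the 3 females that stood apart, and the interaction was -1.17 ± 0.56 and -1.76 ± 0.51. None of these was called (edgeR adjusted p of at least 0.971). The NP females with the higher values were also those with more Y-linked reads, 17, 14 and 58 against 0 to 11 in LP females, and the part of these reads was not tested.

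**Figure D4:**
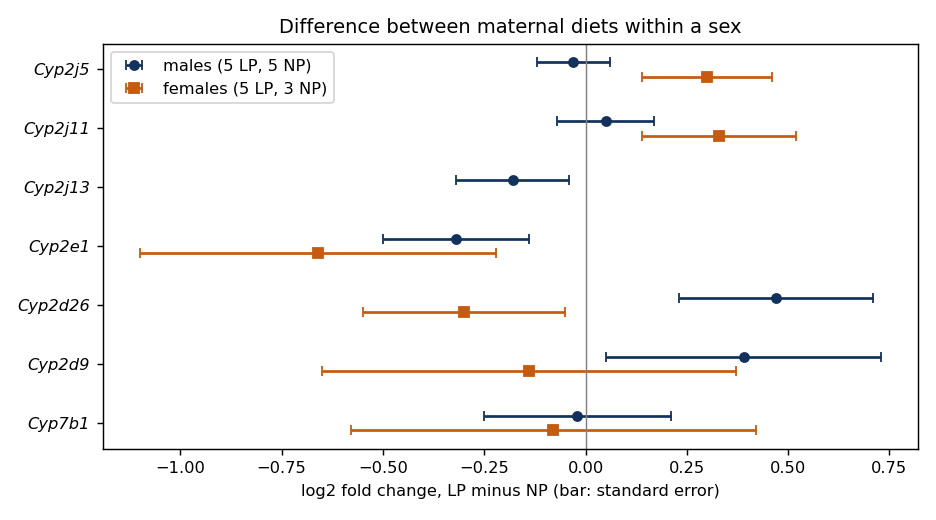
Log2 fold change of LP over NP for each cytochrome in males (circles) and females (squares), with the standard error as a bar; Cyp2j13 in females did not pass the read filter and is not drawn. All values lie between -0.66 and 0.47, and none was called.

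An interaction term compared the diet difference of females with that of males. None of 6 members tested was called, against 2 of 12665 genes (0.0158%). The estimates nearest to the threshold were those of *Cyp2j5* (females minus males, 0.33 ± 0.15) and *Cyp2d26* (-0.77 ± 0.37), at unadjusted p of 0.0426 and 0.0496 and an adjusted p of 0.977 with edgeR. In the lists of working partners and relatives, no gene was called for diet in either sex. Among the other Cyp2j and Cyp2d genes, the smallest unadjusted p in males was that of *Cyp2j6* (log2 fold change 0.34 ± 0.13, unadjusted p = 0.0228 with edgeR), and in females that of *Cyp2j7* (-0.97 ± 0.48, unadjusted p = 0.0704 with edgeR).

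Among the 10 males, the members were set against the mean log2(CPM + 1) of the 5 early proximal tubule markers, a relation chosen after the data were seen. *Cyp7b1* was lower where these markers were higher (Pearson's r = -0.78, permutation p = 0.00909; Spearman's rho = -0.73, permutation p = 0.0209), and *Cyp2d26* was higher (r = 0.72, permutation p = 0.0222; rho = 0.79, permutation p = 0.00857). Over the 7 relations neither passed Benjamini-Hochberg adjustment, at 0.0636 and 0.0777 for r and 0.0731 and 0.06 for rho, by the same permutation test. Without NP males 1 and 5, the mice farthest from the median marker level, r was -0.58 for *Cyp7b1* and 0.63 for *Cyp2d26*. Within LP males r was -0.64 and 0.90, and within NP males -0.95 and 0.55. For the other 5 members r over all 10 males lay between -0.43 and 0.45, but it differed between the diets: -0.89 in LP and 0.31 in NP males for *Cyp2j13*, -0.72 and 0.02 for *Cyp2e1*, and 0.58 and -0.96 for *Cyp2d9*. For *Cyp2j5* it was 0.41 and 0.54, and for *Cyp2j11* -0.14 and -0.39. Each of these within-diet values rests on 5 mice.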

How the data were processed

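Gene-level counts as deposited by the authors were used: raw reads per gene from poly(A)-selected, non-directional libraries, which the authors trimmed, aligned to GRCm39 (GENCODE vM36) with STAR and did not normalize. The deposited column without regard to strand was taken, and unassigned reads were dropped. The labels give a whole kidney in one place and a piece of the left kidney in another. Members and gene lists were chosen with earlier results of these data known.

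Counts were tested with edgeR 4.0.16 in R 4.3.3 (TMM, quasi-likelihood, Benjamini-Hochberg over all genes tested). Sex comparisons used genes with a mean count of at least 10, since a minimum in every library removes genes low in 1 sex, and diet comparisons and the interaction (called on adjusted p alone) required 10 or more counts in each library compared. SE is the log2 fold change divided by the square root of F. Size factors came from DESeq2 1.42.0 over 12665 genes. Exact permutation tests were two-sided, on log2(normalized count + 1), and correlations used 100000 permutations. The main edgeR fit of each comparison, and none of the alternatives, was run on simulated counts with known fold changes. Alternatives were other normalization, filters, DESeq2's Wald test, a replicate block, all groups in 1 model, adjusted p alone, and left-out libraries. Beside the 7 members, the genes named are the list members called (at most 4 per list, by adjusted p), or the gene with the smallest adjusted p, and 2 most like each member (1 for *Cyp2d26*, where the other is not reported here); *Por*, *Cyp2j6*, *Cyp2j9* and the cluster neighbours in the diet comparison were added after their values were seen. Tables were made with Python 3.11.15, pandas 2.3.3, numpy 2.4.6 and scipy 1.17.1. Promoter windows were read from the GRCm39 genome at the starts of GENCODE vM39 canonical transcripts and aligned end to end (match 1, mismatch -1, gap -2).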

Additional observations from a re-analysis of the deposited data

How the results depend on the processing

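The calls of the 6 sex-biased members held over both diets and in LP mice under all alternatives that tested the gene, where a filter of 10 reads in every library left out *Cyp2j13*. In NP mice *Cyp2j5* was not called with the replicate block (1.08 ± 0.20, edgeR adjusted p = 0.0672), nor *Cyp2d9* without the females that stood apart. The number of all genes called in NP mice was 1922, and it was 371 with the replicate block and 1173 to 2864 when 1 library was left out (1173 without NP male 4, 1214 without NP male 1 and 1219 without NP male 3). On adjusted p alone, 5544 genes differed between the sexes over both diets in place of 3071, *Cyp2j11* among them. For diet in males, 5 genes were called, against 9 with no filter, 15 with DESeq2, 2 with the block, 1 in the model of 4 groups and 2 to 6 with 1 library left out (2 without LP male 2 or 5 or NP male 2, 3 or 5). In females 0 were called, against 3 with no filter, 9 with DESeq2, 1 without the females that stood apart, 2 in the model of 4 groups and 0 to 2 with 1 library left out (2 without NP female 2). For the interaction 2 were called, against 4 with DESeq2, 0 with the block, 0 without those females and 0 to 4 with 1 library left out (0 without LP male 3 or NP female 3, and 4 without NP female 2). The cause was not tested. No member was called for diet in any of these.

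Members not called for diet changed sign in places. In males *Cyp7b1* was at 0.06 with the block, and with 1 library left out it ran from -0.16 to 0.17, *Cyp2j5* from -0.07 to 0.00 and *Cyp2j11* from -0.03 to 0.14. In females *Cyp7b1* was at 0.35 without the females that stood apart and ran from -0.35 to 0.16, and *Cyp2d9* from -0.50 to 0.83. For the interaction *Cyp7b1* was at 0.37 without those females and ran from -0.34 to 0.16, *Cyp2d9* from -0.92 to 0.40 and *Cyp2e1* from -0.69 to 0.12. Same-numbered LP and NP mice had a median correlation of -0.15 over 5 pairs in males and -0.44 over 3 pairs in females. Same-numbered males and females had a median of -0.03 over 5 pairs in LP mice. In NP mice it was 0.14 over 3 pairs, from -0.27 to 0.49. So few pairs cannot settle whether the numbers pair the mice. With 3 NP females, precision is lowest for *Cyp2j13*, *Cyp7b1* and *Cyp2d9* in females.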
